A study of Mus musculus with 16 samples.

Results

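A set of 35 mouse genes that respond to interferon or serve class I antigen presentation was followed in RNA from the nucleus accumbens, a ventral striatal region of the reward circuit. The genes were chosen by name, and each was found in the gene table by its Ensembl identifier. The choice was made with earlier results of these data known, so the set as a whole was given no p-value. All 35 were among the 22337 gene rows, and 33 of them were among the 14674 genes that passed the filter on low counts, while Mx1 and Ifi44 did not. The series holds 16 RNA-seq libraries from male C57BL/6 mice, 4 from each of 4 groups given saline, arecoline, caffeine or nicotine for 4 days. Arecoline is the main alkaloid of the areca nut and a cholinergic agonist, caffeine is an antagonist of adenosine, and nicotine is the agonist that names the nicotinic acetylcholine receptors. All mice share 1 inbred strain and sex, and the sources used here do not give doses, routes, ages or whether a library holds RNA of 1 animal or of a pool. Since no label ties replicates to separate animals, the p-values measure spread among libraries that may be technical.

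Interferons are secreted when cells sense viral nucleic acid or other danger signals. Type I interferons act through the receptor kinases JAK1 and TYK2 and the factor ISGF3, which holds STAT2 and IRF9 and binds the interferon-stimulated response element (ISRE). Interferon gamma acts mainly through GAS elements, and it raises guanylate-binding proteins, immunity-related GTPases and the machinery that cuts peptides and loads them on class I molecules. In brain, microglia, endothelial cells and cells of the meninges and perivascular spaces are strong sources of these transcripts, while neurons usually hold little class I.

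Promoter sequences of 5 members are printed first because each holds the core of the ISRE, and because they show how alike the genes Ifit3 and Ifit3b are. The sequences are from RefSeq on GRCm38.p6, 80 bases each, 5′ to 3′ on the strand of the gene. Capitals mark each match to GAAANNGAA, the core of the ISRE, on either strand.
Ifit3b: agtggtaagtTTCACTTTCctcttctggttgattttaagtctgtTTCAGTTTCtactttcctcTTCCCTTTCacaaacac
Ifit3: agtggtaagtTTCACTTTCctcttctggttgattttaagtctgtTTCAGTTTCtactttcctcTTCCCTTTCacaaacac
Isg15: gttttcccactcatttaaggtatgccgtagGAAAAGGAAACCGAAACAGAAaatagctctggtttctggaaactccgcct
Gbp3: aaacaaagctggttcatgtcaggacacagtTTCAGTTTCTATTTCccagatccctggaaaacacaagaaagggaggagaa
B2m: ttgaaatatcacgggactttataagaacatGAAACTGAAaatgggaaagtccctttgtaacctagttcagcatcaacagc
The stretch of Ifit3b lies at chr19:34607760-34607839 on the plus strand and that of Ifit3 at chr19:34583364-34583443 on the same strand. They were identical at 80 of 80 positions, with 3 matches spaced 34 and 19 bases apart in both genes. The matches began 187, 153 and 134 bases before the start of Ifit3b and 155, 121 and 102 bases before that of Ifit3. In Isg15 (chr4:156200847-156200926, minus strand) 3 overlapping matches began 78, 72 and 66 bases before the start. In Gbp3 (chr3:142559970-142560049, plus strand) a pair of overlapping matches began 44 and 38 bases before it and the stretch runs just past the start, and in B2m (chr2:122147518-122147597, plus strand) a single match began 139 bases before it.

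RefSeq promoter windows, from 250 bases before to 50 after the start, were found for 29 of the 35 members. The ISRE core was in windows of 17 of those 29 genes (58.6%) and of 9.76% of all 27025 genes with a window. The GAS core TTCNNNGAA, which reads the same on both strands, was in windows of 8 of the 29 genes (27.6%), against 9.55% of all genes. In 1 of the 34 member windows a match to one motif overlapped a match to the other. By role, the ISRE core was found in 5 of 5 GTPase genes, 7 of 11 antiviral genes, 2 of 2 RNA sensors, 1 of 4 transcription factors and 1 of 6 class I genes. These are matches of letters in a short window, so they say nothing of binding in this tissue.

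Among the members, class I light chain was by far the most abundant transcript per length. B2m averaged 110 FPKM (the deposited values scaled to gene length and library total) over the 16 libraries, followed by Ifi27 at 62.8, H2-D1 at 31.2 and H2-K1 at 17.98 FPKM. No other member averaged over 10 FPKM, and 10 of the 35 averaged under 1 FPKM. The lowest was Mx1, at 0.0519 FPKM. In CPM (counts per M, scaled by the TMM method), 7 members averaged under 1 CPM, 20 between 1 and 10 CPM and 8 at 10 CPM or more. The libraries held between 9.04 and 24.3 M counts (median 14.9 M), so 1 CPM stood for as few as 9.34 counts, and the many low members were measured with wide error.

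Libraries stood apart in ways that bear on these genes. Markers of medium spiny neurons, the main cell of the accumbens, summed to between 6876 and 9193 CPM in saline replicate 3 and arecoline replicates 2 and 3, and to between 581 and 2274 CPM in the other 13 libraries. Drd1 and Adora2a, 2 of those markers, reached down to 7.89 and 1.31 CPM, and Slc17a7, a marker of cortical and other glutamatergic neurons, ranged from 56.7 to 493 CPM, so the labelled region is not represented alike in all libraries. Nicotine replicate 2 held Omp, a marker of olfactory sensory neurons, at 337 CPM, against at most 27.7 CPM elsewhere. The same library had the highest sums of vascular, meningeal and leukocyte markers, which are given with the nicotine results. In bulk tissue, fewer cells of a type and less RNA per cell cannot be told apart.

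The comparison of caffeine with saline asks how these transcripts differed between mice given an adenosine antagonist and mice given saline. Nearly all members were measured lower in the caffeine libraries, but 1 alone passed the test. Fitted log2 fold changes were below 0 for 31 of the 33 members tested, with a median of -0.64, while the median over all 14674 genes was -0.02 and 52.1% of them were below 0. At an adjusted p under 0.05 (edgeR's quasi-likelihood test, Benjamini-Hochberg over all genes tested), 1 of 33 members was called, the antiviral gene Ifit3b, in a comparison in which 4.08% of all genes were called. The share of members called was thus no larger than the background. Before adjustment, 10 of 33 members (30.3%) and 24.6% of all genes had p under 0.05. Groups did not overlap for 12 members, whose 4 caffeine libraries all lay below all 4 saline libraries, whereas 7.82% of all genes tested showed that pattern. These 12 were Ifit3, Ifit3b, Oas1a, Oasl2, Ifi35, Gbp2, Gbp3, Gbp7, H2-K1, H2-D1, Tap2 and Psmb8. For 26 of the 33 members, all 4 caffeine libraries lay below the saline mean.

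Leaving out nicotine replicate 2, which is in neither group but shares the estimate of the spread, raised the count with caffeine from 1 to 6 members. These were Ifit3, Ifit3b, Gbp3, Gbp7, H2-K1 and H2-D1, all lower with caffeine, while 5.81% of all genes were called in that fit. There 16 of 33 members and 26.4% of all genes had an unadjusted p under 0.05, and the members' median log2 fold change was -0.64. The count was also 6 without the 4 libraries that stood apart, where 10.0% of all genes were called, and 5 by DESeq2, which called 10.2%. It was 0 when saline replicate 1, 2 or 3, caffeine replicate 1, 2 or 4, or nicotine replicate 1 or 3 was left out. In that order, those fits called 6.7%, 0.384%, 2.36%, 0.155%, 0.329%, 2.71%, 3.35% and 2.87% of all genes.

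**Figure D1:**
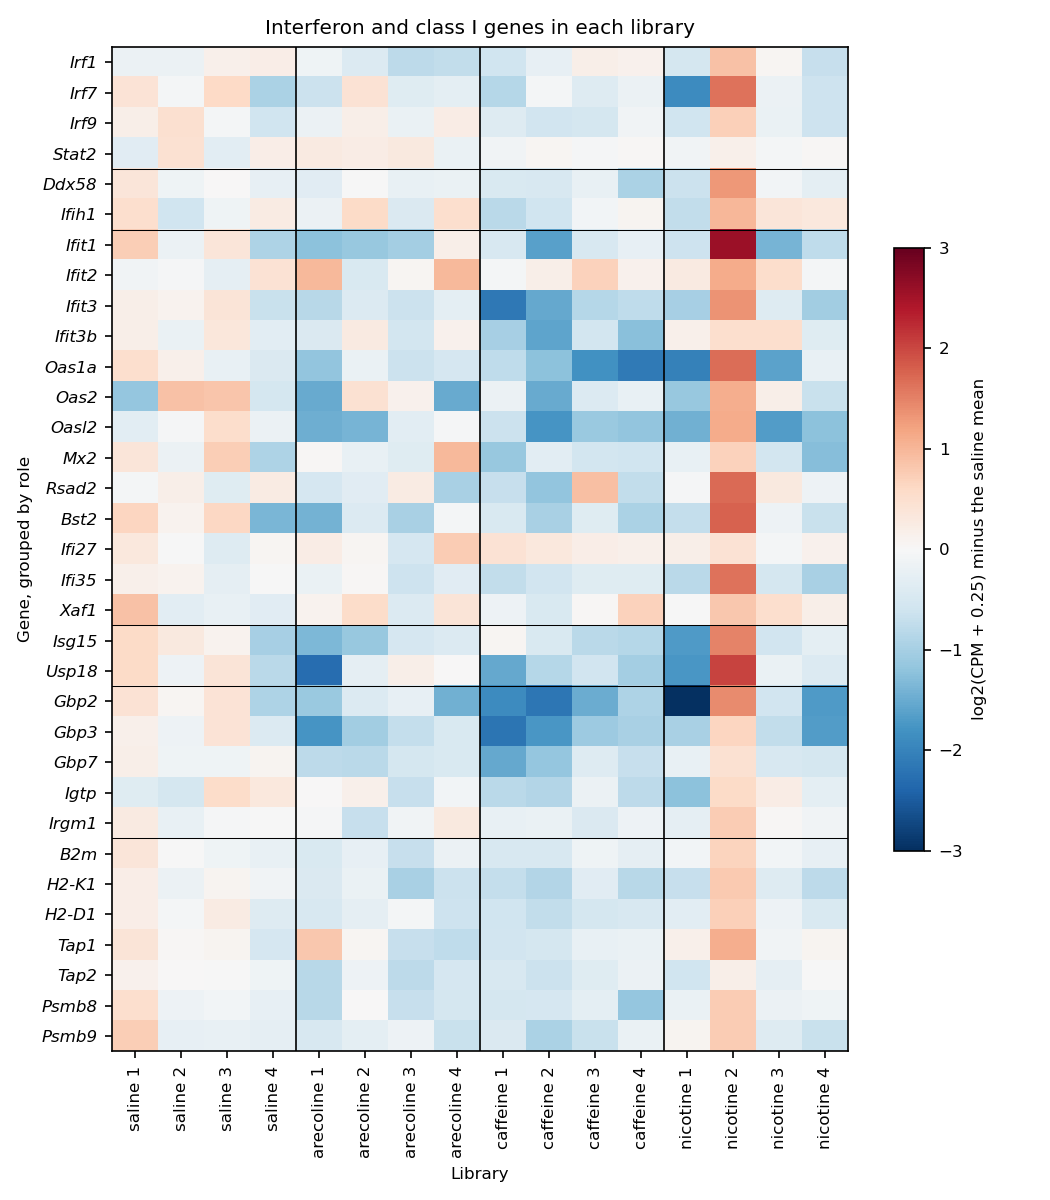
Each row is 1 of the 33 members tested, grouped by role, and each column 1 library. Colour gives log2(CPM + 0.25) minus the mean of the 4 saline libraries for that gene, red for higher and blue for lower. Caffeine columns are blue in most rows, and nicotine replicate 2 is red in all 33.

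Markers of vessel cells moved with the members in the caffeine libraries. The 14 endothelial markers summed to between 216 and 341 CPM with caffeine, against 349 to 413 CPM with saline, and the 12 pericyte and smooth muscle markers to between 156 and 192 CPM, against 230 to 333 CPM. Neither range overlapped. All 14 endothelial and all 12 pericyte markers had fitted fold changes below 0 (medians -0.63 and -0.72), with 0 called in each list by edgeR, 3 and 1 called by DESeq2, and 5 in each at an unadjusted p under 0.05. The counts of all lists here stand beside 4.08% of all genes called by edgeR and 10.2% by DESeq2. By edgeR 24.6% of all genes had an unadjusted p under 0.05, and 52.1% were below 0. Microglial markers summed to between 922 and 1234 CPM with caffeine, against 1027 to 1434 CPM with saline, which overlap, and 13 of 14 were below 0 with a median of -0.21. Cx3cr1 and P2ry12, which mark microglia, were at no less than 73.4 and 40.7 CPM in any library. The 12 fibroblast and meningeal markers, Col1a1 and Col1a2 among them, summed to between 101 and 235 CPM with caffeine, against 199 to 462 CPM with saline. The 16 perivascular macrophage and leukocyte markers summed to between 12.95 and 35.3 CPM, against 23.7 to 59.3 CPM. Oligodendrocyte markers summed to between 3381 and 5481 CPM with caffeine, against 7096 to 8250 CPM with saline, and 6 of 10 were called lower, among them Mog (from 74.8 to 41.3 CPM, adjusted p = 0.0292 by edgeR) and Mbp (from 3978 to 2180 CPM, adjusted p = 0.0309 by edgeR). Astrocyte markers were below 0 in 10 of 10 cases with 1 called, Aldh1l1 (from 134.6 to 87.4 CPM, adjusted p = 0.0308 by edgeR). Sums of neuron markers did not overlap between the groups either. Medium spiny neuron markers summed to between 641.9 and 1890 CPM with caffeine, against 1935 to 9118 CPM with saline, with 11 of 12 below 0 (median -2.42), 0 called by edgeR, 5 by DESeq2 and 11 at an unadjusted p under 0.05. Cortical excitatory neuron markers were higher, at 889 to 1024 CPM, against 250.2 to 715 CPM with saline, and Slc17a7 alone at 371 to 492.5 CPM, against 56.7 to 292 CPM. Of those 10 markers, 8 were above 0 (median 0.62), and edgeR called 1, Bcl6. The part of all these markers in the members' levels was not tested.

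Signalling factors came first in the order of roles, and none of the 4 was called in any comparison. Irf1, a transcription factor that interferon gamma induces strongly, was at 5.93, 5.97, 7.47 and 7.71 CPM with saline, 6.09, 5.03, 3.79 and 3.92 CPM with arecoline, 4.36, 5.67, 7.65 and 7.41 CPM with caffeine, and 4.60, 12.5, 6.99 and 4.10 CPM with nicotine. Its 3 lowest libraries were from arecoline and nicotine, and the caffeine and saline ranges overlapped. Stat2, the subunit of ISGF3 that carries its activation domain, was at 14.4, 25.2, 14.5 and 20.9 CPM with saline, 21.8, 21.2, 22.4 and 15.9 CPM with arecoline, 17.0, 18.9, 17.9 and 18.7 CPM with caffeine, and 17.0, 20.3, 17.5 and 18.7 CPM with nicotine. The saline libraries alone spanned the levels of all other groups, and the log2 fold change with caffeine was -0.05 ± 0.17 (SE). Irf7, which amplifies type I interferon production, and Irf9, the DNA-binding subunit of ISGF3, had log2 fold changes of -0.53 ± 0.64 and -0.45 ± 0.29 with caffeine (SE). The adjusted p over the 4 genes ranged from 0.337 to 0.875 by edgeR. Exons of Irf9 overlap those of Rnf31 on the same strand, and those of Irf7 overlap Phrf1 on the opposite strand.

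RNA sensors were low and did not pass the test. Ddx58 encodes RIG-I, a sensor of viral RNA ends, and was at 5.11, 3.55, 3.94 and 3.25 CPM with saline, 3.04, 3.85, 3.33 and 3.34 CPM with arecoline, 2.76, 2.72, 3.31 and 1.92 CPM with caffeine, and 2.41, 9.96, 3.65 and 3.16 CPM with nicotine. The single high value was nicotine replicate 2. Ifih1, which encodes the long double-stranded RNA sensor MDA5, averaged between 2.51 CPM with caffeine and 4.13 CPM with nicotine, and the log2 fold changes of these genes with caffeine were -0.39 ± 0.39 for Ifih1 and -0.57 ± 0.36 for Ddx58 (SE).

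Antiviral effectors included the only member called. Ifit3b, a gene of the family that binds viral RNA and limits its translation, lies at chr19:34607970-34613401 on the plus strand (mm10, GENCODE M21). It was at 7.43, 5.68, 8.29 and 5.19 CPM with saline, 4.76, 7.86, 4.39 and 7.21 CPM with arecoline, 3.15, 2.02, 4.38 and 2.59 CPM with caffeine, and 7.31, 9.42, 9.34 and 5.04 CPM with nicotine. Caffeine held the 4 lowest of the 16 libraries, with the highest of them close below the lowest arecoline library. Ifit3b fell with caffeine by 1.12 ± 0.29 on the log2 scale (SE), from 6.65 ± 1.45 to 3.03 ± 1.01 CPM (SD, n = 4), with an adjusted p of 0.04 by edgeR's quasi-likelihood test. Over the alternatives tried that adjusted p ranged from 0.00643 to 0.118. The call was lost with no filter on low counts and when any of 8 libraries was left out, among them caffeine replicate 1.

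Ifit3, its neighbour at chr19:34583531-34588731 on the same strand, was more abundant. It was at 17.2, 16.3, 19.8 and 9.41 CPM with saline, 8.34, 11.2, 9.58 and 12.2 CPM with arecoline, 3.24, 5.05, 8.31 and 8.75 CPM with caffeine, and 7.46, 38.97, 11.51 and 7.19 CPM with nicotine. All 4 caffeine libraries were below all 4 saline libraries, and nicotine replicate 2 was far above every other library. The log2 fold change with caffeine was -1.302 ± 0.46 (SE), with an adjusted p of 0.105. Transcripts of the pair were 97.8% identical over 1700 bases, so the split of reads between Ifit3 and Ifit3b by the authors' counting is uncertain. Summed over both genes, saline libraries held 24.6, 21.9, 28.1 and 14.6 CPM, arecoline 13.1, 19.1, 13.97 and 19.4 CPM, caffeine 6.39, 7.06, 12.7 and 11.3 CPM, and nicotine 14.8, 48.4, 20.9 and 12.2 CPM. The caffeine and saline ranges of the sum did not overlap either.

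Ifi27, a small mitochondrial and nuclear membrane protein gene, was the second most abundant member and was not lower with caffeine. It was at 67.4, 53.4, 41.3 and 56.2 CPM with saline, 62.7, 55.9, 38.1 and 90.7 CPM with arecoline, 72.4, 67.0, 61.4 and 59.8 CPM with caffeine, and 60.8, 73.2, 51.9 and 58.6 CPM with nicotine. No group stood apart, and its log2 fold change with caffeine was 0.26 ± 0.20 (SE, adjusted p = 0.444 by edgeR). Ifit2 was the other member whose fitted change with caffeine was above 0, at 0.25 ± 0.33 (SE).

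Other antiviral genes were lower in caffeine without passing the test. Oas1a, an activator of RNase L, averaged 1.11 ± 0.40 CPM with saline and 0.255 ± 0.215 CPM with caffeine (SD, n = 4). Its log2 fold change, -2.12 ± 0.91 (SE), was the most negative of the members. Its transcript was 97.6% identical to that of Oas1g over 1861 bases. Oasl2, an OAS-like protein with ubiquitin-like domains, averaged 3.61 ± 1.06 and 1.48 ± 0.54 CPM, and Bst2, the tetherin that holds budding virions at the cell surface, 4.33 ± 2.22 and 2.28 ± 0.56 CPM (SD, n = 4). Ifit1, Oas2, Mx2, Rsad2, Ifi35 and Xaf1 had log2 fold changes between -1.13 and -0.01 with caffeine. Of the 13 antiviral genes tested, 11 were below 0 with a median of -0.92, and 3 had an unadjusted p under 0.05. Mx1, a GTPase that blocks influenza virus and is defective in C57BL/6 mice, was at 0 counts in 4 of 16 libraries, and Ifi44 in 3.

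The ISG15 system was near its detection limit. Isg15, a ubiquitin-like modifier joined to other proteins, was at 1.70, 1.35, 1.15 and 0.406 CPM with saline, 0.265, 0.339, 0.665 and 0.732 CPM with arecoline, 1.11, 0.699, 0.496 and 0.466 CPM with caffeine, and 0.151, 3.43, 0.619 and 0.807 CPM with nicotine. Usp18, the protease that removes it and also restrains the type I receptor, was at 2.52, 1.42, 2.17 and 0.811 CPM with saline, 0.132, 1.301, 1.86 and 1.62 CPM with arecoline, 0.387, 0.776, 0.992 and 0.673 CPM with caffeine, and 0.301, 7.28, 1.36 and 1.14 CPM with nicotine. Both genes had their highest level in nicotine replicate 2, and in both saline replicate 4 lay below the highest caffeine library. Their log2 fold changes with caffeine were -0.74 ± 0.69 and -1.29 ± 0.79 (SE).

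**Figure D2:**
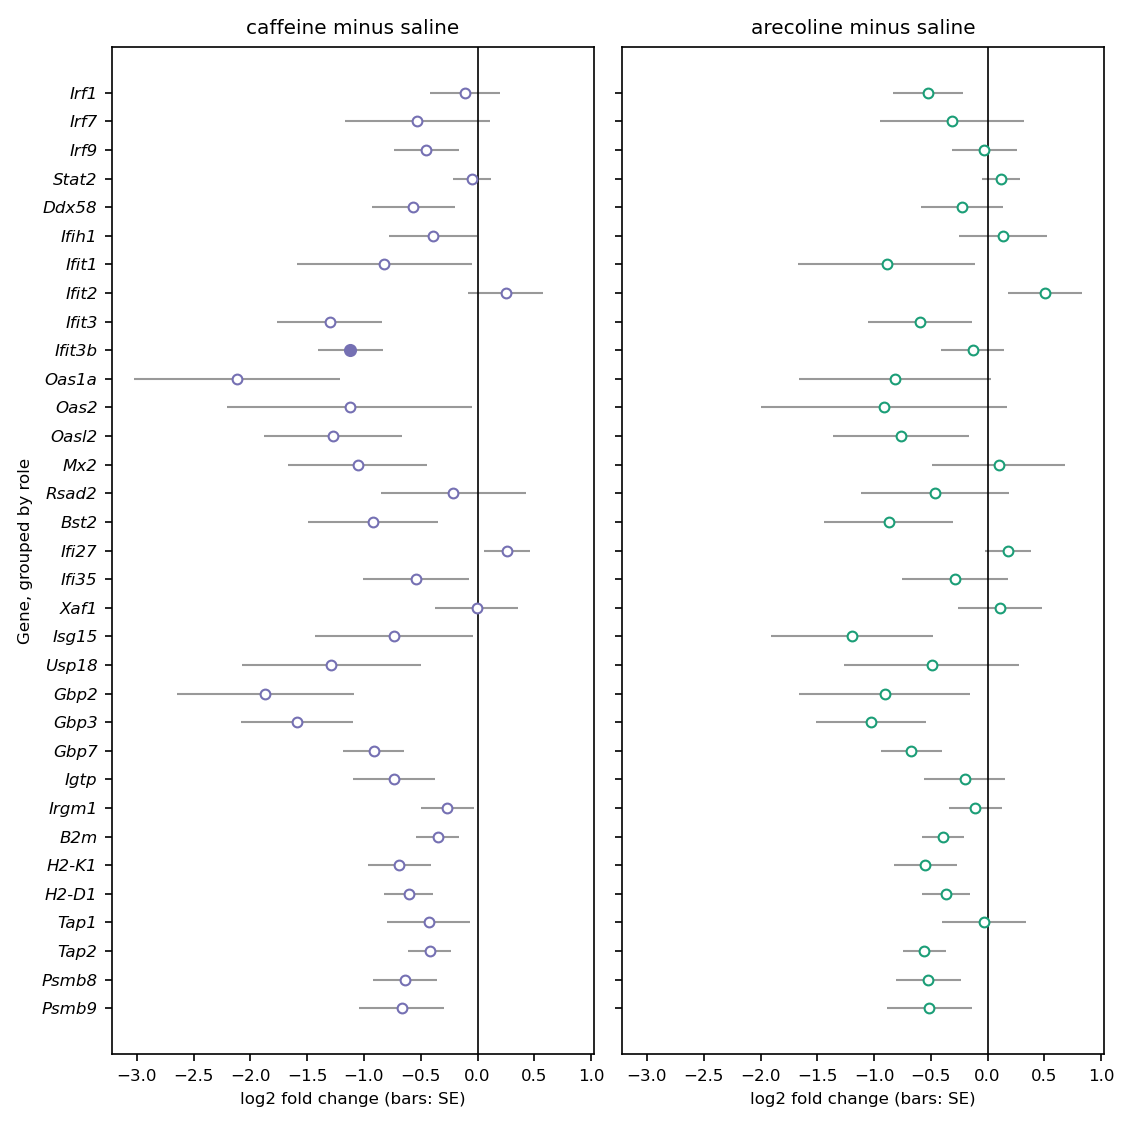
Points are fitted log2 fold changes of the 33 members tested, with their SE as bars, for caffeine against saline on the left and arecoline against saline on the right. Filled points passed an adjusted p of 0.05. With caffeine 31 of 33 points lie left of 0 and Ifit3b alone is filled, and with arecoline 27 of 33 lie left of 0 and none is filled.

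Interferon-inducible GTPases were below 0 with caffeine in 5 of 5 genes, with a median log2 fold change of -0.92. Gbp7, a guanylate-binding protein of the chromosome 3 cluster (chr3:142530342-142550149, plus strand), was at 8.39, 6.68, 6.72 and 7.87 CPM with saline, 4.17, 4.07, 5.06 and 5.28 CPM with arecoline, 2.37, 3.18, 5.58 and 4.51 CPM with caffeine, and 6.25, 10.2, 5.26 and 5.04 CPM with nicotine. Both the arecoline and the caffeine libraries lay wholly below the saline libraries, as did nicotine apart from replicate 2. The log2 fold change was -0.92 ± 0.27 with caffeine and -0.67 ± 0.27 with arecoline (SE), with adjusted p of 0.0636 and 0.241 by edgeR. These comparisons share the saline libraries. Its transcript shares 637 bases with the overlapping model Gm43802.

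Gbp2 and Gbp3, further guanylate-binding proteins that coat the vacuoles of intracellular parasites, had more negative fold changes with caffeine than Gbp7. Gbp3 averaged 4.31 ± 1.14 CPM with saline, 2.11 ± 0.82 with arecoline and 1.42 ± 0.62 with caffeine, and Gbp2 averaged 3.21 ± 1.25, 1.72 ± 0.73 and 0.864 ± 0.432 CPM (SD, n = 4). With caffeine the log2 fold change was -1.59 ± 0.49 for Gbp3 and -1.87 ± 0.78 for Gbp2 (SE), with adjusted p of 0.0736 and 0.153 by edgeR.

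Igtp and Irgm1 belong to the immunity-related GTPases, which act on vacuole membranes and autophagy. Igtp was at 4.36, 3.84, 8.42 and 7.14 CPM with saline, 5.69, 6.28, 3.39 and 5.28 CPM with arecoline, 3.10, 2.95, 5.00 and 3.16 CPM with caffeine, and 2.26, 8.57, 6.62 and 4.57 CPM with nicotine. Irgm1, the more abundant of the pair per length (4.77 against 2.47 FPKM), was at 12.8, 8.95, 10.2 and 10.4 CPM with saline, 10.3, 6.39, 9.71 and 12.96 CPM with arecoline, 8.95, 9.16, 7.77 and 9.43 CPM with caffeine, and 8.66, 17.9, 10.7 and 9.75 CPM with nicotine. Groups overlapped for both genes, and the caffeine fold changes were -0.73 ± 0.36 and -0.27 ± 0.23 (log2, SE). Exons of Igtp overlap those of Irgm2 on the same strand, so reads there cannot be assigned to one of them.

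Class I genes were below 0 in 7 of 7 cases with caffeine (median log2 fold change -0.61) and in 7 of 7 with arecoline (-0.51), and none was called. H2-D1, a classical heavy chain (chr17:35262730-35267499, plus strand), was at 84.6, 71.5, 87.9 and 56.2 CPM with saline, 52.7, 61.7, 70.5 and 48.2 CPM with arecoline, 48.5, 44.1, 51.2 and 53.2 CPM with caffeine, and 58.9, 121, 66.5 and 53.9 CPM with nicotine. All caffeine libraries lay below all saline libraries, with saline replicate 4 close above the highest of them. Its log2 fold change with caffeine was -0.61 ± 0.22 (SE, adjusted p = 0.103 by edgeR), from 75.04 ± 14.4 to 49.2 ± 3.9 CPM (SD, n = 4). A stretch of 280 bases was 96.4% identical to H2-Q7, and H2-Q7 averaged 0.585 CPM with saline.

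B2m, the light chain shared by class I molecules, was at 135, 104, 95.8 and 89.2 CPM with saline, 76.2, 88.9, 65.1 and 93.3 CPM with arecoline, 74.5, 75.1, 96.0 and 87.6 CPM with caffeine, and 98.8, 168, 99.6 and 88.1 CPM with nicotine. Caffeine and saline overlapped at their edges, and the log2 fold change was -0.35 ± 0.19 (SE, adjusted p = 0.261 by edgeR). H2-K1, the other classical heavy chain of this strain, averaged 34.8 ± 4.0 CPM with saline, 23.8 ± 5.3 CPM with arecoline, 21.6 ± 3.9 CPM with caffeine and 32.1 ± 19 CPM in the nicotine group (SD, n = 4). Its log2 fold change with caffeine was -0.69 ± 0.28 (SE), with an adjusted p of 0.145 by edgeR. The peptide transporter genes Tap1 and Tap2 had values of -0.43 ± 0.37 and -0.42 ± 0.19 with caffeine, and the immunoproteasome subunits Psmb8 and Psmb9 of -0.64 ± 0.29 and -0.67 ± 0.37 (log2, SE). Tap1 and Psmb9 overlap on opposite strands, and the sources used here do not say whether the reads keep strand.

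**Figure D3:**
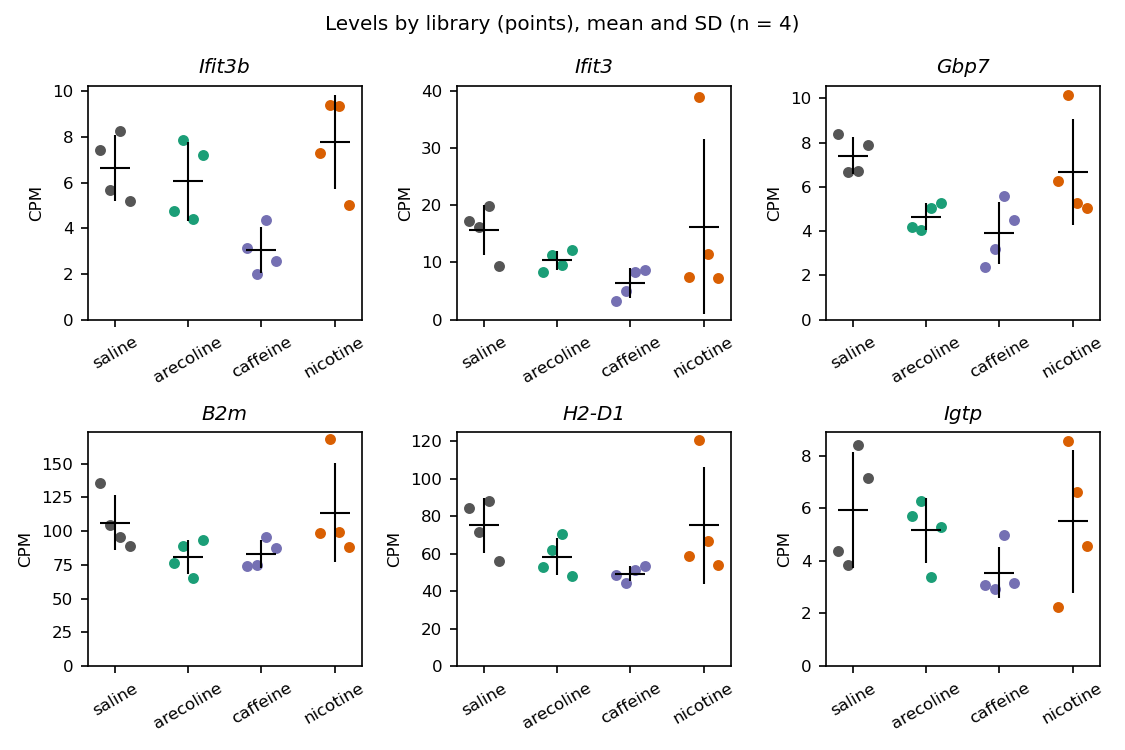
Panels give CPM on a linear axis from 0 for Ifit3b, Ifit3, Gbp7, B2m, H2-D1 and Igtp, with 1 point per library and the mean and SD (n = 4) in black. Ifit3b lies between 2.02 and 4.38 CPM with caffeine and from 5.19 to 8.29 CPM with saline, and in all 6 panels nicotine replicate 2 is the highest library.

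For arecoline against saline, the question concerns a cholinergic agonist and the same genes. Fitted log2 fold changes were below 0 for 27 of 33 members and 49.2% of all genes, with medians of -0.46 and 0.00. No member was called by edgeR or by DESeq2, which called 0.0136% and 3.13% of all genes, and 3 members had an unadjusted p under 0.05 (9.09%, against 15.7% of all genes). Groups did not overlap for 4 members, Gbp3, Gbp7, H2-K1 and Tap2, which were lower in all 4 arecoline libraries, a pattern found in 3.76% of all genes tested. The lowest adjusted p was that of Tap2, at 0.173 by edgeR. That gene averaged 13.2 ± 1.0 CPM with saline and 8.97 ± 2.05 CPM with arecoline (SD, n = 4), and its fitted log2 difference was -0.56 ± 0.19 (SE). Isg15 had the most negative value, -1.19 ± 0.71, and Ifit2 the highest, 0.50 ± 0.33 (log2, SE). Markers of 5 cell types were also lower with arecoline, with 0 called by edgeR, 0 to 1 per list by DESeq2 and 1 to 4 per list at an unadjusted p under 0.05. All 12 pericyte and smooth muscle markers were below 0 (median -0.65) and summed to between 156 and 225 CPM, against 230 to 333 CPM with saline. All 14 endothelial markers (median -0.49), all 14 microglial markers (median -0.20), all 12 fibroblast and meningeal markers (median -1.28) and all 10 astrocyte markers (median -0.39) were below 0. Astrocyte sums did not overlap, at 4845 to 5643 CPM with arecoline and 5895 to 7758 CPM with saline, while the endothelial, microglial and fibroblast sums did. Medium spiny neuron sums spanned 581 to 9193 CPM with arecoline. The part of these markers in the members' levels was not tested.

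Nicotine was compared with saline to ask the same of a nicotinic agonist. No member was called by edgeR or DESeq2, which called 0.0% and 0.732% of all genes, and none had an unadjusted p under 0.05. Of 33 members 13 were below 0 and the median log2 fold change was 0.09, against 0.02 for all genes. No member had 4 nicotine libraries below all saline libraries, a pattern seen in 3.0% of all genes tested. That median rested on 1 library. Nicotine replicate 2, the library with the fewest counts (9.04 M), held the highest level of 31 of the 35 members. It lay above the saline mean for 33 of 33 members tested. Its level over the mean of the other 3 nicotine libraries ranged from 1.15-fold for Stat2 to 12.9-fold for Ifit1, with a median of 2.39, and was 2-fold or more for 21 members. Summed over the 35 members, it held 724 CPM, against 300 to 499 CPM in the other 15 libraries.

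Without nicotine replicate 2, 26 of 33 members were below 0 against saline and the median was -0.40. Over all genes 52.1% were below 0. None of the members and 0.0% of all genes were called by edgeR, and 8 members, beside 14.2% of all genes, had an unadjusted p under 0.05. Oasl2 then had a log2 fold change of -1.67 ± 0.45 in place of -0.39 ± 0.60, H2-K1 of -0.62 ± 0.18 in place of -0.13 ± 0.28, and Ifi35, which encodes an interferon-induced leucine zipper protein, of -0.83 ± 0.25 in place of 0.26 ± 0.47 (SE). The adjusted p of these genes without that library was 0.176, 0.177 and 0.187 by edgeR. Ifit3b stayed above 0 in both fits, at 0.22 ± 0.28 and 0.12 ± 0.30 (log2, SE). Cell markers also set the 3 remaining nicotine libraries apart from saline. Their sums lay wholly below saline for oligodendrocyte (5103 to 5868 CPM, against 7096 to 8250 CPM), fibroblast and meningeal (140.5 to 181 CPM, against 198.5 to 462 CPM) and medium spiny neuron markers (1116 to 1442 CPM, against 1935 to 9118 CPM), and wholly above it for cortical excitatory neuron markers (833 to 939.8 CPM, against 250.2 to 715 CPM). Their part in the members' levels was not tested.

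**Figure D4:**
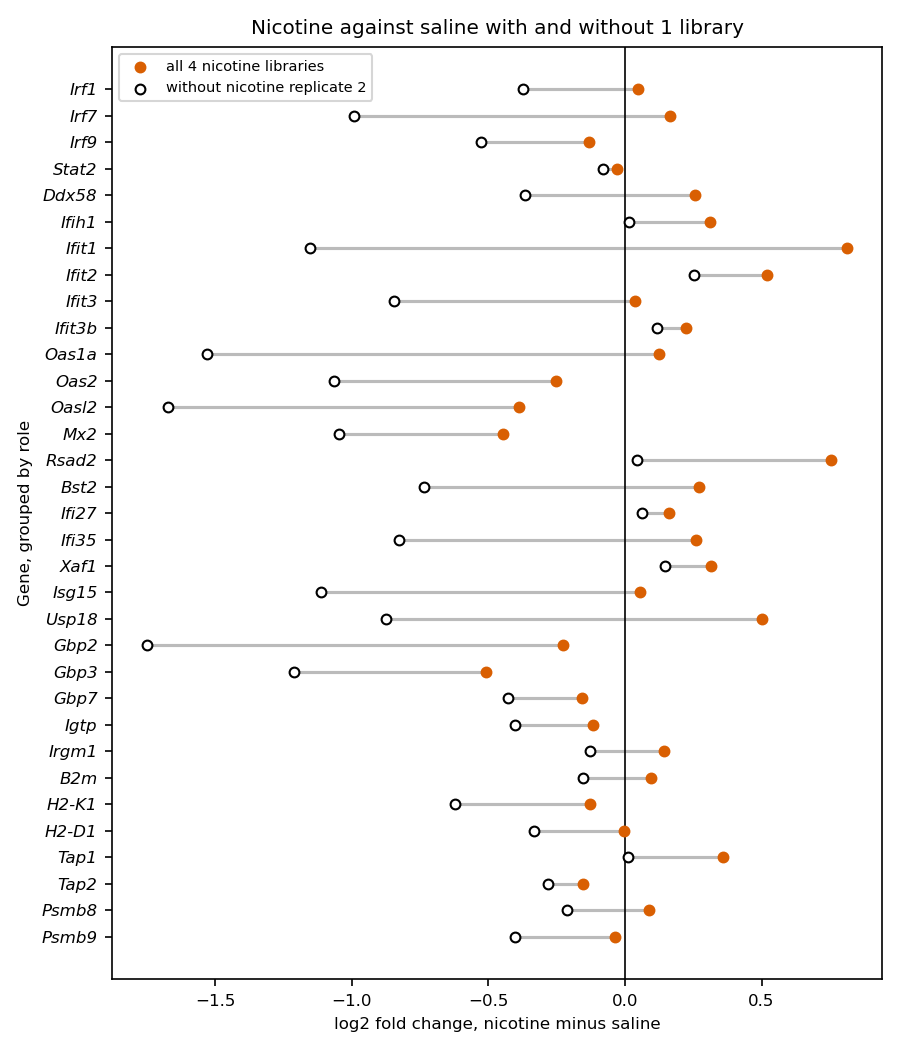
Filled points are log2 fold changes of nicotine against saline with all 4 nicotine libraries, and open points the same without nicotine replicate 2, for each of the 33 members tested. All 33 open points lie left of their filled partners, and 26 of them lie below 0.

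The library that was high in these genes was also high in markers of leukocytes, meninges, vessels and olfactory epithelium. Perivascular macrophage and leukocyte markers summed to 296 CPM in nicotine replicate 2, against 12.95 to 59.3 CPM elsewhere, and Mrc1, which marks perivascular macrophages, reached 25.8 CPM there. Fibroblast and meningeal markers summed to 1233 CPM (101 to 462 elsewhere), pericyte and smooth muscle markers to 593 CPM (156 to 333 elsewhere) and endothelial markers to 601 CPM (216 to 413 elsewhere). Olfactory epithelium markers summed to 1564 CPM, against 268 to 819 CPM elsewhere. Microglial markers did not follow, with 1129 CPM in that library and 922 to 1434 CPM in the others. The part of these markers in the members' levels was not tested.

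**Figure D5:**
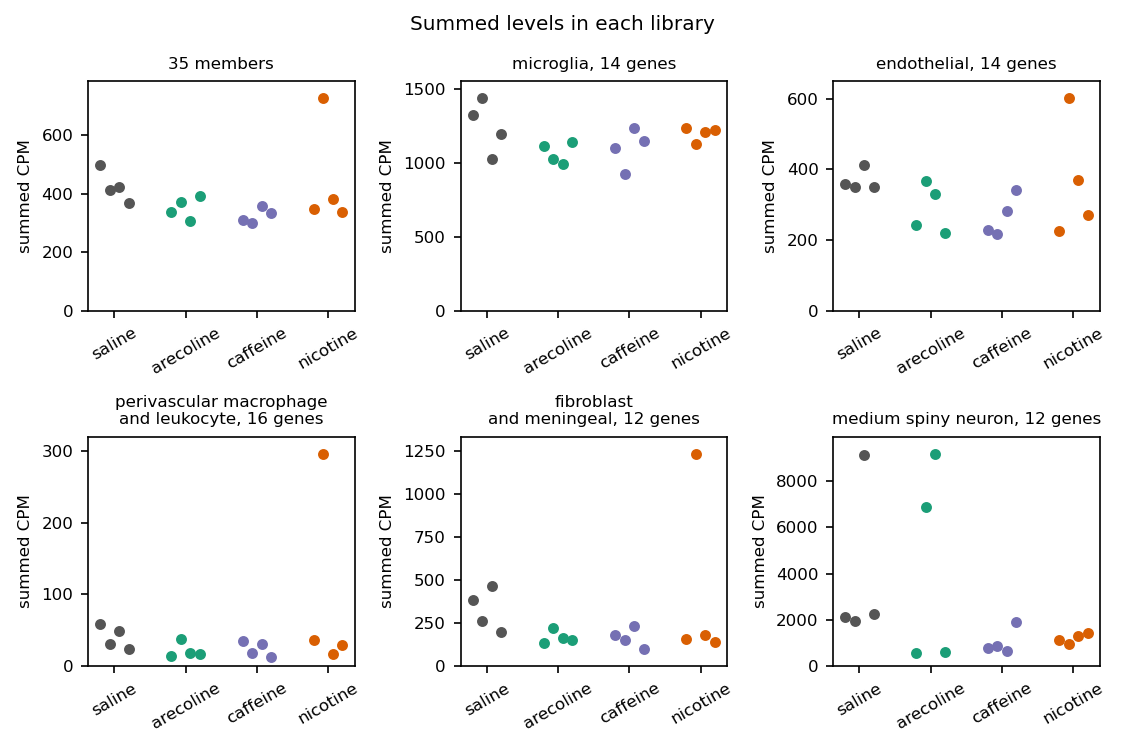
Points are sums of CPM in each library for the 35 members and for 5 lists of marker genes, on linear axes from 0. Nicotine replicate 2 is the highest library for the members (724 CPM) and for endothelial, leukocyte and fibroblast markers, but not for microglial or medium spiny neuron markers.

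Compounds were also compared with each other, in 3 contrasts. Arecoline minus nicotine gave 29 of 33 members below 0 (median log2 difference -0.48), against 51.6% of all genes. None was called by edgeR or by DESeq2, which called 0.0886% and 4.17% of all genes. At an unadjusted p under 0.05 by edgeR there were 4 members (12.1%), against 18.2% of all genes. Without nicotine replicate 2 the median was 0.12. Caffeine minus nicotine gave 32 of 33 below 0 (median -0.73), against 53.7% of all genes. None was called by edgeR (0.0% of all genes), and DESeq2 called 1, Ifit3b (0.0342% of all genes). An unadjusted p under 0.05 by edgeR was found for 11 members (33.3%) and 9.3% of all genes. Without nicotine replicate 2 the median was -0.16, and 1 member (3.03%) and 5.85% of all genes had such a p. Arecoline minus caffeine gave 7 of 33 below 0 (median 0.24), against 47.4% of all genes. None was called by edgeR (0.0% of all genes), and DESeq2 called 1, Ifit3b (2.6% of all genes). At an unadjusted p under 0.05 by edgeR there was 1 member (3.03%), against 15.8% of all genes. That one was Ifit3b, which was higher with arecoline than with caffeine by 0.99 ± 0.28 on the log2 scale (SE, adjusted p = 0.148 by edgeR). The test for any difference among the 4 groups called 0 members by edgeR, against 1.14% of all genes, and 2 by DESeq2 (Gbp7 and Ifit3b), against 11.4% of all genes. An unadjusted p under 0.05 by edgeR was found for 8 of 33 members and 23.4% of all genes. The lowest adjusted p of that test was 0.0662 by edgeR, for Ifit3b.

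Genes around the members in the pathway were examined from lists. Of 11 interferon ligand genes, none passed the filter, and Ifna1, Ifna2, Ifna4, Ifna5, Ifnb1, Ifng and Ifnl3 had 0 counts in all 16 libraries, so transcripts of these genes were not detectable at this depth. The other ligand genes reached at most 0.214 CPM, for Ifnk in nicotine replicate 2. Of 15 receptor and JAK-STAT genes tested, 1 was called with caffeine, a comparison that called 4.08% of all genes. It was Ifngr2, the signalling chain of the interferon gamma receptor. Ifngr2 was at 68.4, 70.7, 49.1 and 66.8 CPM with saline and 92.7, 88.6, 90.5 and 82.9 CPM with caffeine. It was at 73.5, 64.25, 59.5 and 84.0 CPM with arecoline and 89.05, 74.8, 78.15 and 78.2 CPM with nicotine. All caffeine and all nicotine libraries lay above all saline libraries, but the share of all genes with that pattern was not computed. With nicotine Ifngr2 was not called, in a comparison in which edgeR called 0.0% of all genes. With caffeine Ifngr2 rose by 0.48 ± 0.12 on the log2 scale (SE), with an adjusted p of 0.0411 by edgeR, opposite in sign to most members. Ifnar1, a chain of the type I receptor, had a log2 fold change of -0.04 with caffeine.

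Among 16 nucleic acid sensing genes tested, 1 was called with caffeine, beside 4.08% of all genes. Tlr3, an endosomal receptor for double-stranded RNA, was at 13.2, 18.7, 11.8 and 12.2 CPM with saline and 4.65, 4.89, 10.2 and 5.91 CPM with caffeine, and fell by 1.12 ± 0.25 on the log2 scale (SE, adjusted p = 0.0257 by edgeR). Among 53 other interferon-stimulated genes tested, 45 were below 0 with caffeine (median log2 fold change -0.58), against 52.1% of all genes. Of the 53, 1 was called, again beside 4.08% of all genes. That gene, Tor3a, an endoplasmic reticulum ATPase of the torsin family, was at 12, 16.8, 12.4 and 11.6 CPM with saline and 7.60, 6.83, 4.80 and 10.3 CPM with caffeine. It was at 9.13, 11.8, 9.85 and 8.62 CPM with arecoline and 8.59, 14.1, 11.8 and 11.6 CPM with nicotine. With caffeine Tor3a fell by 0.84 ± 0.22 on the log2 scale (SE, adjusted p = 0.0423 by edgeR). For Tlr3 and Tor3a all caffeine libraries lay below all saline libraries, a pattern found in 7.82% of all genes tested. The arecoline libraries of Tlr3 also lay wholly below saline, as for 3.76% of all genes tested.

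Class I genes outside the members were 13 among those tested. Of these, 10 were below 0 with caffeine, with a median log2 fold change of -0.12, and 0 were called by edgeR and 1 by DESeq2, with 2 at an unadjusted p under 0.05. Over all genes, edgeR called 4.08% and DESeq2 10.2%, and 24.6% had an unadjusted p under 0.05 by edgeR. The most negative was H2-Q1, a nonclassical heavy chain gene, at 0.886, 0.710, 2.78 and 0.243 CPM with saline and 0.0968, 0, 0.124 and 0.0518 CPM with caffeine. It was at 0.132, 0.113, 0.200 and 0.052 CPM with arecoline and 0, 3.75, 0 and 0.0672 CPM with nicotine. All caffeine and arecoline libraries, and nicotine apart from replicate 2, were near or at 0 counts and below all saline libraries. Of all genes tested, 7.82% had all caffeine libraries below all saline libraries and 3.76% all arecoline libraries. The log2 fold change with caffeine was -3.82 ± 1.37 (SE, adjusted p = 0.107 by edgeR), beyond that of any member. H2-Q6, at or under 1.61 CPM in every library, had a value of -0.97 ± 1.00 (log2, SE). The H2-Q genes are close copies of each other, so their split of reads is uncertain. The assembly chaperones Tapbp, Calr and Canx had values of -0.02, 0.18 and 0.00, while Erap1, the peptidase that trims class I peptides, had a value of -0.86 (log2, adjusted p = 0.0721 by edgeR). Class II genes, which mark professional antigen-presenting cells, were below 0 in 10 of 11 cases with a median of -0.65, and 0 were called by edgeR and 1 by DESeq2, with 1 at an unadjusted p under 0.05. Cd74, the class II invariant chain, averaged 16.3 ± 5.5 CPM with saline and 10.4 ± 6.1 CPM with caffeine (SD, n = 4) and reached 79.8 CPM in nicotine replicate 2. With arecoline and with nicotine, no gene of these pathway lists was called by edgeR, with between 0 and 6 per list at an unadjusted p under 0.05. DESeq2 called 1 of them with arecoline, among the other interferon-stimulated genes, and 0 with nicotine. Over all genes, edgeR called 0.0136% with arecoline and 0.0% with nicotine, and DESeq2 3.13% and 0.732%. An unadjusted p under 0.05 by edgeR was found for 15.7% of all genes with arecoline and 12.2% with nicotine.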

How the data were processed

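Per the labels' protocols, cDNA was made from total RNA by oligo-dT priming and template switching, then PCR-amplified and read on a NovaSeq machine (Illumina). The sources used here do not say whether strand was kept. The tools in the submitters' processing notes are RSEM, HISAT2, StringTie 1.3.1, Bowtie2 2.2.8 and fastp 0.18.0, without roles, and the build is mm10. The deposited table gives, per the file headers, an estimated count and an FPKM value for each gene and library. The estimated counts deposited by the authors are not scaled for depth, and the FPKM values made by the authors are scaled to gene length and library total. No molecular identifiers are mentioned, so amplified copies count as separate reads.

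Genes were named by Ensembl identifier with GENCODE M21 (22283 of 22337 rows), since the table's own symbol differed for 5 members. Rounded estimated counts of all 16 libraries entered edgeR 4.0.16 (R 4.3.3) after filterByExpr filtering and TMM scaling. Its quasi-likelihood model held 1 mean per group, with 6 contrasts and an F test of any difference. Benjamini-Hochberg adjustment covered 14674 genes, and adjusted p under 0.05 was called. CPM are TMM-scaled, and SE come from the model. The code was tested on simulated data with changes set in the caffeine group. There edgeR recovered 32.8% of 1.5-fold, 65.7% of 2-fold and 84.8% of 4-fold changes, so its missing calls are weak evidence of no change. Of the simulated calls, 6.87% were false with edgeR and 15.9% with DESeq2, so DESeq2's further calls need more caution.

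The members, their roles, the pathway and marker lists and the motifs were chosen with earlier results of these data known. Values in every library are given for members called in any test and, for each role, for the members highest in FPKM and lowest in the p of the 4-group test. From the pathway lists, genes called against saline are named, and further genes were named after their values were seen. Promoter windows came from RefSeq (GRCm38.p6). Shared sequence was searched among GENCODE M21 transcripts with blastn 2.17.0 for at least 95% identity over at least 100 bases, and 10 members had a match in another gene. No promoter window was found for Oas2, Mx1, Mx2, Usp18, Ifi27 and Tap2. Alternatives were DESeq2 1.42.0, limma 3.58.1 on log2 FPKM, other scaling and filters, the replicate number as a block, and libraries left out. No pair of libraries of the same group agreed within sampling noise (lowest chi-square per degree of freedom 11.48). Pairs from different groups were not checked in this way.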

Additional observations from a re-analysis of the deposited data

Results flagged for a closer look

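Nicotine replicate 2 lay far above the other 3 nicotine libraries for 4 of the members whose values are given in every library. It held Ddx58 at 9.96 CPM, Ifit3 at 39.0 CPM, Usp18 at 7.28 CPM and B2m at 168 CPM. Caffeine replicate 3 lay far above the other 3 caffeine libraries for Igtp, at 5.00 CPM, and was still below the saline mean of 5.94 CPM. Each of these gaps to the nearest library of the group was large against the range of the group, by Dixon's criterion at the 95% level, which chance meets in about 1 in 20 groups. Over all 35 members and 4 groups, 19 of 140 sets of 4 libraries met the criterion. They were 14 in nicotine, each of them nicotine replicate 2, and 2, 1 and 2 in saline, arecoline and caffeine. The same library held the highest sums of olfactory, meningeal, leukocyte, pericyte and endothelial markers, and their part in these values was not tested.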

How the results depend on the processing

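The number of members called lower with caffeine against saline was 1, and it was 0 with no filter on low counts, 5 with DESeq2 (Gbp3, Gbp7, Ifit3b, H2-D1 and Ifit3), 6 with the pair of groups fitted alone, 6 without the 4 libraries that stood apart, and 0 to 6 when 1 library at a time was left out. The share of all genes called moved as well, from 4.08% to 2.22%, 10.2%, 5.68%, 10.0% and 0.155% to 6.7% in these fits. The counts did not always move together, since 0 members and 6.7% of all genes were called without saline replicate 1. DESeq2 called 1 member, Ifit3b, in each of arecoline minus caffeine and caffeine minus nicotine, and 2 members for any difference among the 4 groups, where the fit without the 4 libraries also called 2. The cause was not tested. The median log2 fold change of the members stayed below 0 in all 25 alternatives for caffeine minus saline (-0.72 to -0.36) and for arecoline minus saline (-0.51 to -0.26). With 1 library left out at a time, it ranged from -0.40 to 0.28 for nicotine minus saline, from -0.63 to 0.12 for arecoline minus nicotine and from -0.89 to -0.16 for caffeine minus nicotine, and without the 4 libraries it was -0.42, 0.11 and -0.17. The ends at -0.40, 0.12 and -0.16 came without nicotine replicate 2. With the replicate number as a block, 1 member was called with caffeine (997 in place of 599 over all genes) and the medians against saline were -0.59 for caffeine, -0.47 for arecoline and -0.03 for nicotine. No label pairs the libraries by number. Of 24 same-numbered pairs, 8 correlated above 0.1 (range -0.28 to 0.49) and 6 correlated best with their own number. These correlations cannot exclude a pairing, since they also carry the differences in cell markers between libraries. Over all genes, DESeq2 called 1496 with caffeine, 458 with arecoline and 107 with nicotine, against 599, 2 and 0. For the 13 members with values given in every library, 1927 of the recomputed values kept their side of the threshold, 14 passed it anew and 9 lost it. Values that changed sign without being called are among the 1927. Depth limits the members under 1 CPM most, since 1 CPM stood for as few as 9.34 counts.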
